A study of Rattus norvegicus with 6 samples.

Results

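Wnt ligands, the receptors that bind them and the secreted proteins that hold them back were examined in RNA sequencing of rat intracranial aneurysms (IAs). Members were chosen by a rule on gene symbols, with earlier results of these data known. Symbols that begin with Wnt, Fzd, Sfrp or Dkk and go on with a number, together with Lrp5, Lrp6, Wif1 and Frzb, gave 40 of the 22081 genes in the deposited table. They were 19 Wnt ligands, 9 frizzled receptors, 2 co-receptors, 6 antagonists that bind Wnt proteins and 4 Dkk antagonists, most of which bind the co-receptors.

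RNA was sequenced from 6 libraries of 3 female Sprague Dawley rats that were 10 weeks old at surgery. From each rat, 1 library held an unruptured lesion of the anterior or posterior communicating artery, dissected as rupture-prone, and 1 library held what remained of its circle of Willis, the ring of arteries at the base of the brain (n = 3 each, 3 separate animals). All 3 rats had both ovaries removed, the left renal artery and carotid and pterygopalatine arteries tied, and a diet in which sodium chloride made up 8% and 3-aminopropionitrile, a blocker of lysyl oxidase, 0.12%. The circle of Willis is therefore a vessel of a hypertensive, treated animal and not an untreated artery. Tissue was taken at day 63 after surgery by the RNA methods and the labels, whereas the animal methods name an earlier day. The purpose of the comparison was to find genes whose expression differs between a rupture-prone lesion and the other arteries of the same animal.

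Wnt proteins are lipid-modified ligands that act on neighbouring cells. A frizzled receptor and the co-receptor LRP5 or LRP6 bind the ligand together and stabilise beta-catenin, which enters the nucleus and switches on target genes with TCF/LEF factors, while other ligands act through frizzleds without beta-catenin on cell shape and movement. In brain vessels, Wnt signalling through frizzleds drives vessel growth and the blood-brain barrier, and in vessel walls it acts on smooth muscle cells and fibroblasts.

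The libraries held 65823027 to 70705938 counts of reads assigned to genes, and 16718 to 17470 genes had at least 1 count. The markers of the vessel wall were present in all 6 libraries. The summed TPM (transcript level scaled by gene length and library) of 7 smooth muscle markers was 6560, 8170 and 2960 in the lesions of animals 1, 2 and 3, against 8780, 4980 and 14600 in the circle of Willis. Several libraries stood apart by markers of other tissue. Choroid plexus markers summed to 14000 TPM in the lesion of animal 2 and to 249 to 436 TPM in the other libraries. Ttr alone had 13000 TPM of that sum, and Kcnj13 of the same list was lower there than in the circle of Willis of animal 2 (38.9 against 98.6 TPM). Oligodendrocyte markers summed to 4120 TPM in that lesion and to 122 to 495 TPM elsewhere. Hypothalamus and pituitary markers summed to 860 TPM in the circle of Willis of animal 3 and to 6.1 to 57.2 TPM elsewhere. In bulk tissue, fewer cells of a type and less RNA per cell cannot be told apart.

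The family's levels spread over several orders of magnitude. By mean TPM over the 6 libraries, 6 members were over 50 TPM, 22 lay between 1 and 50 TPM and 12 were under 1 TPM. The 6 highest were the ligand Wnt6 (115 TPM), the antagonists Dkk3 (110 TPM) and Sfrp1 (102 TPM), the ligands Wnt4 (95.4 TPM) and Wnt5b (81.9 TPM) and the receptor Fzd2 (76.2 TPM), and neighbours in this order overlapped between libraries. Frzb followed at 40.4 TPM, Wnt16 at 23.5 TPM and Lrp5 at 21.9 TPM. The family took up 0.188%, 0.148% and 0.122% of all counts in the lesions of animals 1, 2 and 3, against 0.239%, 0.253% and 0.179% in the circle of Willis, so the share was lower in the lesion within each animal.

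**Figure D1:**
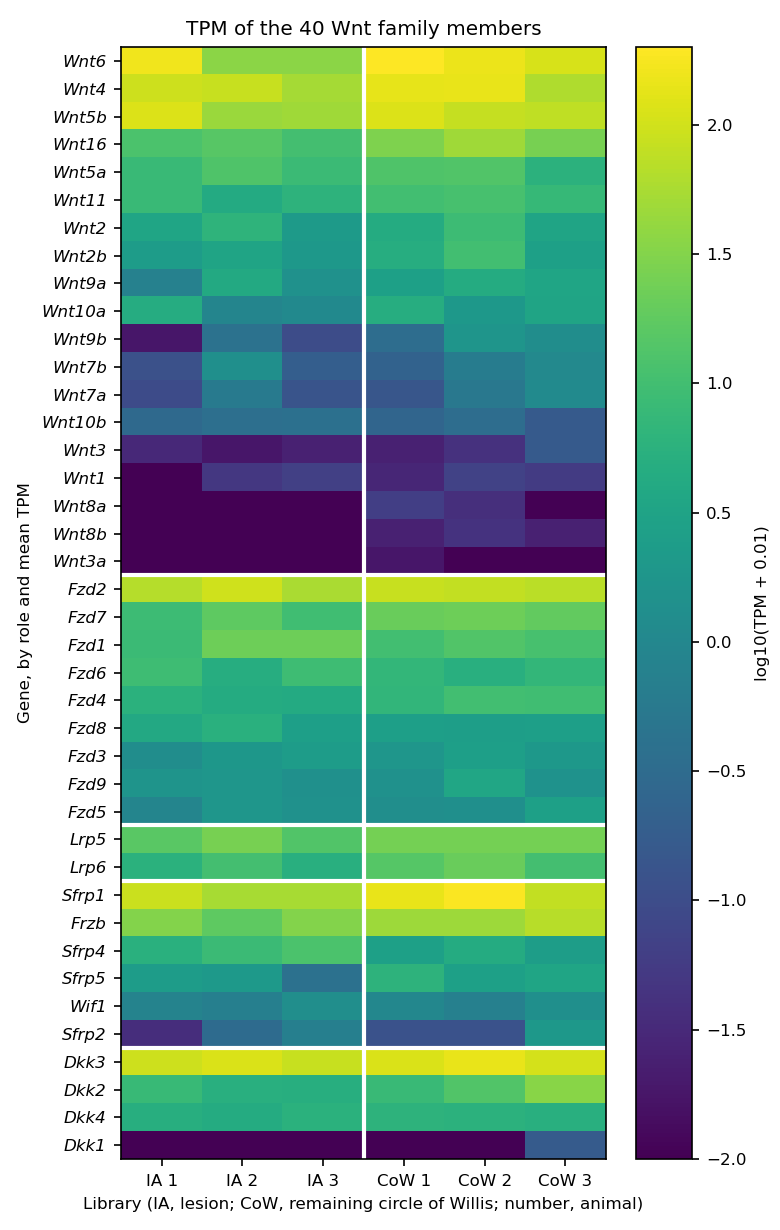
Heat map of the level of each of the 40 members (rows, grouped by role and ordered by mean level) in the 6 libraries (columns, IA lesions left of the white line and circles of Willis right of it), coloured by log10(TPM + 0.01). Wnt6, Wnt4, Wnt5b, Fzd2, Sfrp1 and Dkk3 are bright in all 6 libraries, and Wnt1, Wnt3, Wnt3a, Wnt8a, Wnt8b and Dkk1 are dark.

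The 6 members not tested had too few counts. Wnt3a had 0 counts in each lesion, against 1, 0 and 0 in the circle of Willis, and Wnt8b had 0 in each lesion, against 1, 2 and 1. Wnt8a had 0 in each lesion, against 4, 2 and 0 in the circle of Willis, and Dkk1, an antagonist of LRP6, had 0 in each lesion, against 0, 0 and 6. Wnt1 had 0, 4 and 6 counts in the lesions, against 2, 6 and 5 in the circle of Willis, and Wnt3 had 3, 1 and 2 in the lesions, against 2, 4 and 21. In all, 5 of these stayed under 10 counts in every library, and a count of 0 allows up to 3 counts, so no fold is given for them. Some genes of the family lie side by side, and Wnt1 neighbours Wnt10b on chromosome 7 (10731 bases apart), Wnt3 neighbours Wnt9b on chromosome 10 (22717 bases apart) and Wnt3a neighbours Wnt9a there (21108 bases apart).

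Across the family, lesion levels were mostly below those of the animal's own circle of Willis, and no member passed the test that adjusts for all genes. Ratios within an animal are given as log2 of the lesion over the circle of Willis, after scaling for library composition and adding a prior count of 2, by which ratios of sparse genes are drawn toward 0. The mean log2 ratio was below 0 in 29 of 34 tested members (85.3%), against 53.2% of the 15367 genes tested. The median log2 ratio of the family was -0.34, -0.46 and -0.60 in animals 1, 2 and 3, beside 0.00, -0.05 and -0.04 for all genes. Within the family, 17 members were below 0 in each of the 3 animals and 3 were above 0 in each. The share of all genes that did so was not counted, so these counts only describe the family.

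With Benjamini-Hochberg adjustment over all genes, edgeR's quasi-likelihood test, blocked by animal, called 0 members and 0 genes in all (0% of 15367 in either direction). At an unadjusted p under 0.05 it gave 10 members lower in lesions (29.4% of those tested), against 12% of all genes, and 1 member higher, Sfrp4 (2.94%), against 8.63% of all genes. DESeq2 with the same block called 9 members lower, against 6.37% of all genes, and 1 member higher, against 5.38%, whereas limma-voom called 0. A ratio past 1.5-fold in the same direction in all 3 animals was found for 3 members lower in lesions (8.82%), Lrp6, Wnt16 and Wnt9b, against 5.51% of all genes, and for Sfrp4 as the 1 member higher (2.94%), against 2.75% of all genes. With animal 1 left out, 9 members (26.5%) were past 1.5-fold lower in both remaining animals, against 11.9% of all genes. With animal 2 left out 8 were (23.5%), against 9.61% of all genes, and with animal 3 left out 4 were (11.8%), against 6.95%. Past 1.5-fold higher were 2 members without animal 1 (Fzd1 and Sfrp4), against 11.6% of all genes, 1 without animal 2 (Sfrp4), against 3.88%, and 2 without animal 3 (Fzd8 and Sfrp4), against 4.39%. At 2-fold in all 3 animals, Wnt16 and Wnt9b were lower, against 1.95% of all genes, and 0 members were higher, against 1.24%. After scaling for library composition, the 3 lesions lay below all 3 circles of Willis in 8 members (23.5%), against 11.6% of all genes, and above them in 2 members, Fzd8 and Sfrp4 (5.88%), against 10.3%.

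**Figure D2:**
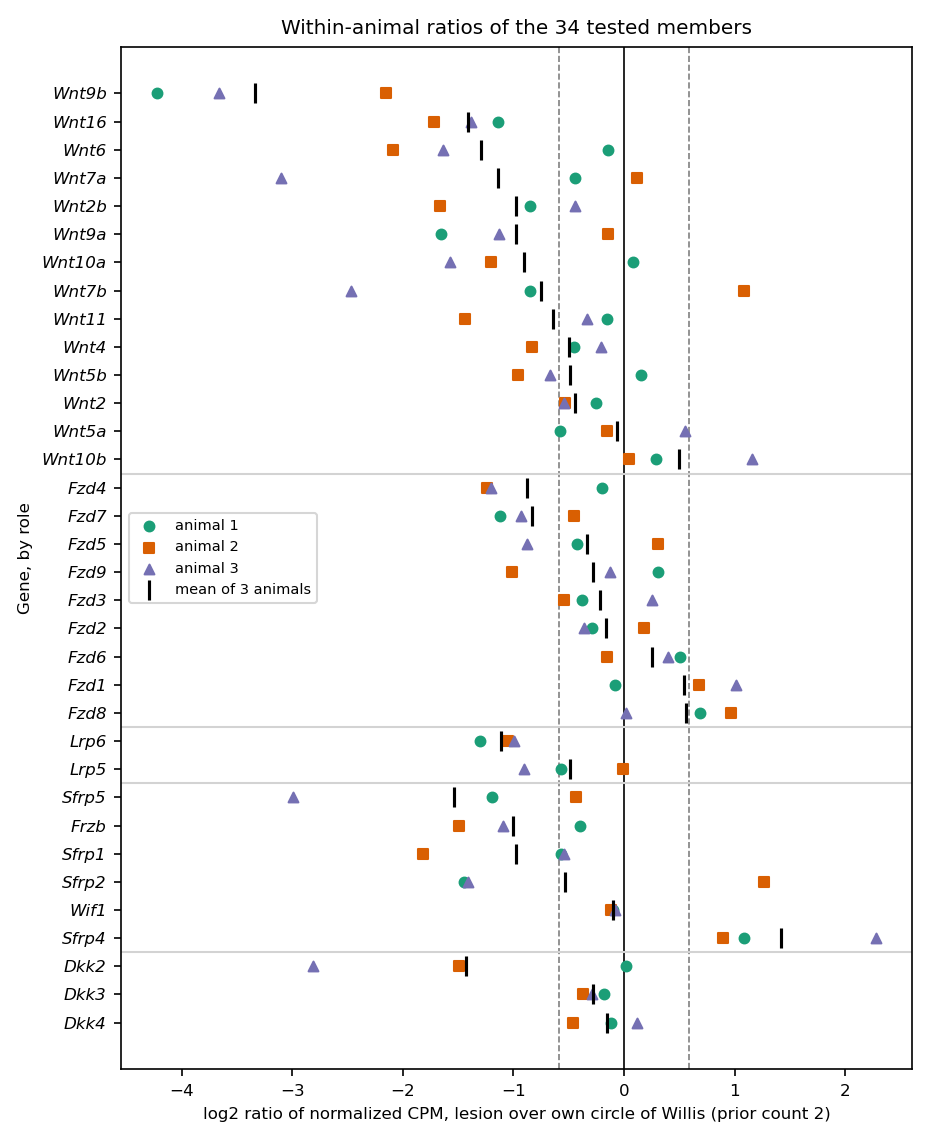
The log2 ratio of lesion over own circle of Willis (horizontal axis, prior count 2) for each of the 34 tested members (rows, grouped by role), with a symbol for each animal, a black bar for their mean, a solid line at 0 and dashed lines at 1.5-fold. Most symbols lie left of 0, Wnt9b, Wnt16 and Lrp6 lie left of the dashed line in all 3 animals, and Sfrp4 lies right of it in all 3.

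Among the ligands, Wnt16 and Wnt9b were lower in all 3 lesions and the abundant Wnt6 was much lower in the lesions of animals 2 and 3 only. The 14 tested ligands had a median log2 ratio of -0.45, -0.89 and -0.90 in animals 1, 2 and 3, and 13 of the 14 had a mean below 0. Their summed level was 416, 217 and 168 TPM in the lesions, against 520, 479 and 303 TPM in the circle of Willis. Wnt4, Wnt5b and Wnt6 together made up 90.3%, 77% and 80.9% of that sum in the lesions, against 86.6%, 78.7% and 81.4% in the circle of Willis.

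Wnt16 (ENSRNOG00000005781, chromosome 4, 49369296 to 49379703 in Rnor6) encodes a ligand known in mice for holding back bone loss. It had 12, 15.3 and 10.2 TPM in the lesions of animals 1, 2 and 3, against 28.9, 48.4 and 26.5 TPM in the circle of Willis. The lesions averaged 12.5 ± 2.59 TPM and the circle of Willis 34.6 ± 12 TPM (SD, n = 3 each), and all lesions lay below all circles of Willis. The log2 ratios were -1.14, -1.72 and -1.38 (mean -1.41, SE 0.17). The unadjusted p was 0.000598 by edgeR's quasi-likelihood test, the adjusted p was 0.168, and DESeq2 gave an adjusted p of 3.69e-07. The difference was of a like size in the 3 animals.

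Wnt9b (ENSRNOG00000003807, chromosome 10, 91785893 to 91807937) encodes a ligand needed in mice for kidney tubules and the face. Its counts were 2, 82 and 21 in the lesions, against 74, 361 and 284 in the circle of Willis, so it rests on few reads in the lesions. In TPM these were 0.00855, 0.4 and 0.0916 in the lesions, against 0.332, 1.73 and 1.27 in the circle of Willis. The lesion of animal 2 lay above the circle of Willis of animal 1, so the groups overlapped although each lesion was below its own artery. The log2 ratios were -4.22, -2.15 and -3.66 (mean -3.34, SE 0.62), with an adjusted p of 0.174 by edgeR's quasi-likelihood test and 2.1e-05 by DESeq2. The mean log2 ratio was -2.70 with a prior count of 10 and -3.94 without animal 2. It was -2.23 on the deposited TPM after adding an offset larger than the lesion values 0.00855 and 0.0916, which draws ratios toward 0. The size of the difference is therefore uncertain.

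Wnt6 (ENSRNOG00000017409, chromosome 9, 82033543 to 82047166) encodes a ligand of epithelia and was the most abundant member. It had 164, 36.1 and 35.1 TPM in the lesions, against 196, 147 and 109 TPM in the circle of Willis. The lesion of animal 1 lay among the circles of Willis and the other lesions lay below all of them. Within animals the log2 ratios were -0.14, -2.09 and -1.64 (mean -1.29, SE 0.59), and the adjusted p was 0.22 by edgeR's quasi-likelihood test and 0.0183 by DESeq2. Its neighbour Wnt10a, which starts 6415 bases beyond the end of Wnt6 on the same strand, had a like pattern at a lower level, with 4.64, 0.887 and 1.08 TPM in the lesions, against 4.77, 1.98 and 3.25 TPM in the circle of Willis, and log2 ratios of 0.08, -1.20 and -1.57.

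Within the list of fibroblast and meninges markers, Ptgds, Slc22a6 and Slc6a13 resembled Wnt6 and Wnt10a. They differed little in animal 1 and were lower in the lesions of animals 2 and 3. This course was not particular to the meninges. The 6 endothelial markers had median log2 ratios of -0.07, -1.40 and -0.92, with 5 below 0 on average and 1 above. Ptgds, the prostaglandin D synthase of the meninges, had 107000, 26400 and 24100 TPM in the lesions, against 132000, 123000 and 85100 TPM in the circle of Willis. Slc22a6, an organic anion transporter of the meninges, had 298, 95.7 and 70.6 TPM in the lesions, against 387, 367 and 215 TPM in the circle of Willis. Slc6a13, a transporter in the meninges, had 639, 235 and 253 TPM in the lesions, against 656, 580 and 460 TPM in the circle of Willis. The collagen genes of the same list went the other way in animals 2 and 3, with log2 ratios of 0.42, 2.94 and 3.15 for Col1a1 and 0.13, 1.68 and 1.58 for Col3a1. The list without Ptgds summed to 2290, 6930 and 5460 TPM in the lesions, against 2470, 2970 and 2350 TPM in the circle of Willis. Of the 8 markers tested, 3 had a mean log2 ratio above 0 and 5 below. The part of meningeal or endothelial tissue in the ligand values was not tested.

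Wnt4 (ENSRNOG00000013166, chromosome 5), a ligand of kidney and gonad development, had 92.1, 85.3 and 52.3 TPM in the lesions, against 137, 145 and 60.7 TPM in the circle of Willis. Each lesion was below its own artery, but animal 3 was low in both tissues and the groups overlapped. The mean log2 ratio was -0.50 (SE 0.18), with an adjusted p of 0.236 by edgeR's quasi-likelihood test. Wnt2b (ENSRNOG00000014385, chromosome 2), a ligand that acts through beta-catenin, had 2.38, 3.28 and 1.99 TPM in the lesions, against 4.69, 9.96 and 2.72 TPM in the circle of Willis. Its groups overlapped as well, with a mean log2 ratio of -0.98 (SE 0.36) and an adjusted p of 0.224.

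Wnt5b, a ligand that acts mostly without beta-catenin, had 120, 45.5 and 48.2 TPM in the lesions, against 117, 84.6 and 76.6 TPM in the circle of Willis. Wnt5a, its close relative, had 8.22, 12.9 and 8.38 TPM in the lesions, against 13.3, 13.8 and 5.72 TPM in the circle of Willis, so its direction differed between animals. Wnt11, which acts on cell movement, had log2 ratios of -0.15, -1.44 and -0.33, and Wnt2 had -0.25, -0.53 and -0.54. Neither gene separated the groups. Wnt9a had 22, 105 and 43 counts in the lesions, against 76, 113 and 95 in the circle of Willis. Wnt10b was low in all libraries, at 16 to 39 counts, with log2 ratios of 0.29, 0.05 and 1.16.

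Wnt7a and Wnt7b encode the ligands that neural cells send to brain endothelium. Wnt7a had 13, 78 and 18 counts in the lesions, against 19, 70 and 167 in the circle of Willis. Wnt7b had 20, 227 and 33 counts in the lesions, against 39, 103 and 189 in the circle of Willis. Both were highest in libraries that also carried brain markers, the lesion of animal 2 and the circle of Willis of animal 3. The 8 neuron markers summed to 6.61, 54.6 and 17.7 TPM in the lesions, against 4.56, 20.8 and 61.3 TPM in the circle of Willis. They were mixed in the lesion of animal 2, where Tubb3 had 28.5 TPM and Stmn2 12.7 TPM of that sum. Snap25 (3.58 against 4.43 TPM) and Syt1 (1.24 against 2.82 TPM) were lower there than in its circle of Willis. The median log2 ratio of the neuron markers was 0.43, -0.18 and -3.75 in animals 1, 2 and 3. The part of brain tissue in the Wnt7a and Wnt7b values was not tested.

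**Figure D3:**
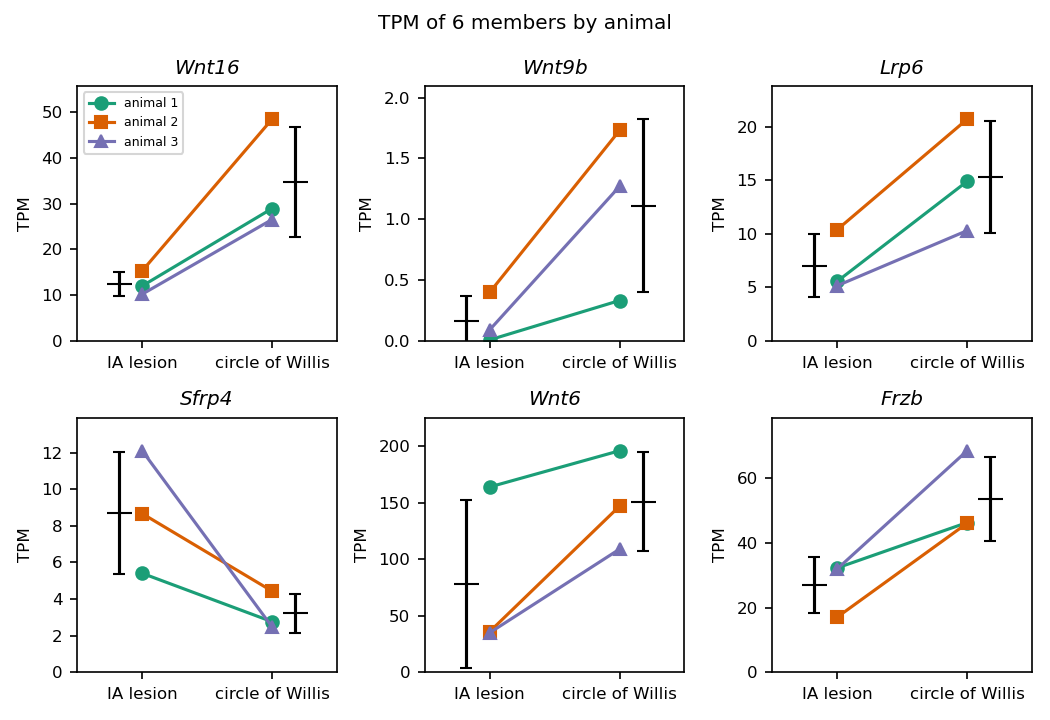
TPM (vertical axis, linear from 0) of 6 members in IA lesion (left) and circle of Willis (right), with a line for each animal and, beside the points, the mean and SD of the 3 libraries (the lower SD bar of Wnt9b lesions runs below 0 and is not drawn there). Wnt16, Wnt9b and Lrp6 are lower and Sfrp4 is higher in the lesion of every animal, whereas Wnt6 differs little in animal 1 and strongly in animals 2 and 3.

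Promoter windows of 300 bases, 250 before to 50 after a RefSeq start in the assembly GRCr8, were matched for 27 of the 40 members. For each symbol only the first listed window was kept, so any further start was not searched. Lrp6 and Sfrp4 were among those not matched. The letters CTTTGAT, a core of TCF/LEF sites, were searched on both strands and stood in 0 of the 27 windows, against 3.62% of 27457 rat windows. The AP-1 letters TGANTCA stood in 1 of the 27 (Wnt16), against 7.33% of all windows, and GC box letters GGGCGG stood in 14 of the 27 (51.9%), against 34.9%. TATAAA stood in 1 window, that of Dkk1, against 14.3% of all. A match of letters describes the window and is not a binding site.

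The windows of the ligands with the lowest ratios are printed to show how they differ, with the searched letters in capitals. Wnt16 (chr4:51786478-51786777, plus strand) holds the AP-1 letters at its far end, 17 CpG and no GC box. Wnt9b (chr10:89157016-89157315, minus strand) holds 4 GC boxes and 28 CpG, and Wnt6 (chr9:83778302-83778601, plus strand) holds 5 GC boxes and 31 CpG, more than in 90% of all windows.
Wnt16: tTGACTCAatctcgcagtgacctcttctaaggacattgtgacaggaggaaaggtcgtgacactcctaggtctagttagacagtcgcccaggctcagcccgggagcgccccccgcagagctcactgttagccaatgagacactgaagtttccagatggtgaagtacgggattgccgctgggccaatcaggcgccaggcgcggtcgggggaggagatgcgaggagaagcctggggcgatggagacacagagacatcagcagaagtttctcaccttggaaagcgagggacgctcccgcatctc
Wnt9b: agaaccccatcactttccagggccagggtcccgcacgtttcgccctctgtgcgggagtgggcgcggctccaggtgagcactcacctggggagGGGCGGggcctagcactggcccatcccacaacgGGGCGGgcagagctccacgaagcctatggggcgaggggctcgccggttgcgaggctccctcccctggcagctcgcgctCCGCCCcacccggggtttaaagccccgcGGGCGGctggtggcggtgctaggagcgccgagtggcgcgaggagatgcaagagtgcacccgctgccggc
Wnt6: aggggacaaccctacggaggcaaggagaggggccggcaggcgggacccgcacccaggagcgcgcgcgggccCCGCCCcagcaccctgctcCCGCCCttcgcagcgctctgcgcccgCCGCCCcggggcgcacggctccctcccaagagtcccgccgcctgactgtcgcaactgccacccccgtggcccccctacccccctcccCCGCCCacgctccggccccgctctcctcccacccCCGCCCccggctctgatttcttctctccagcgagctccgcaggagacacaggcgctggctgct

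The frizzled receptors shared no single direction, with Fzd4 and Fzd7 lower in lesions and Fzd1 and Fzd8 mostly higher. Their median log2 ratio was -0.20, -0.15 and -0.13 in animals 1, 2 and 3, and 6 of the 9 had a mean below 0. The summed level was 105, 156 and 109 TPM in the lesions, against 138, 143 and 127 TPM in the circle of Willis. Most of it came from Fzd2 (ENSRNOG00000021962, chromosome 10), a receptor for Wnt5a and Wnt3a in mammalian cells, at 65.2, 96 and 55.9 TPM in the lesions, against 86.5, 81.4 and 72.2 TPM in the circle of Willis. Fzd2 groups overlapped and the mean log2 ratio was -0.16 (SE 0.17), with an adjusted p of 0.577 by edgeR's quasi-likelihood test.

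Fzd7 (ENSRNOG00000016119, chromosome 9, 66305731 to 66308550), a receptor that passes on beta-catenin signals, had 8.72, 17.3 and 9.53 TPM in the lesions, against 20.6, 22.7 and 18.2 TPM in the circle of Willis. All lesions lay below all circles of Willis, that of animal 2 narrowly. Within animals the log2 ratios were -1.12, -0.45 and -0.93 (mean -0.83, SE 0.20), with an adjusted p of 0.181 by edgeR's quasi-likelihood test and 0.014 by DESeq2.

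Fzd4 (ENSRNOG00000016848, chromosome 1, 153589471 to 153598375) is the receptor of brain and retinal endothelium that also binds norrin. It had 5.5, 4.44 and 4.17 TPM in the lesions, against 6.88, 10.1 and 9.57 TPM in the circle of Willis, and the groups did not overlap. The log2 ratios were -0.20, -1.24 and -1.20 (mean -0.88, SE 0.34), with an adjusted p of 0.207 by edgeR's quasi-likelihood test and 0.0417 by DESeq2. Endothelial markers were mixed. The 6 that were found summed to 570, 272 and 266 TPM in the lesions, against 645, 645 and 712 TPM in the circle of Willis, with median log2 ratios of -0.07, -1.40 and -0.92 and 5 of 6 below 0 on average. Vwf, Tek and Cldn5 were lower in the lesions of animals 2 and 3, Cdh5 and Kdr were lower by over 1 on the log2 scale in animal 2 only, and Emcn had log2 ratios of 0.60, -0.21 and 1.67. How much of the Fzd4 value goes with the amount of endothelium was not tested.

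Of the other frizzleds, Fzd1 had 8.6, 22.7 and 22.7 TPM in the lesions, against 9.86, 13.6 and 11.3 TPM in the circle of Willis, so that animals 2 and 3 were higher and animal 1 was not. Fzd8 had 3.9, 5.3 and 2.67 TPM in the lesions, against 2.62, 2.59 and 2.63 TPM in the circle of Willis, without overlap but by a log2 ratio of only 0.02 in animal 3. Their adjusted p-values by edgeR's quasi-likelihood test were 0.278 and 0.299. Fzd3, Fzd5, Fzd6 and Fzd9 had mean log2 ratios of -0.22, -0.33, 0.25 and -0.28, overlapped between tissues and differed in direction between animals.

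Of the co-receptors, Lrp6 was lower by a like amount in each lesion, and Lrp5 was lower in the lesions of animals 1 and 3. Lrp6 (ENSRNOG00000006338, chromosome 4, 168194927 to 168323751) had 5.57, 10.4 and 5.16 TPM in the lesions, against 14.9, 20.7 and 10.3 TPM in the circle of Willis. Animal 2 was the highest in both tissues, and its lesion lay just above the circle of Willis of animal 3 in TPM, yet just below it after scaling for library composition. The lesions averaged 7.04 ± 2.91 TPM and the circle of Willis 15.3 ± 5.21 TPM (SD, n = 3 each). The log2 ratios were -1.30, -1.05 and -0.99 (mean -1.11, SE 0.09). The unadjusted p was 0.000537 by edgeR's quasi-likelihood test, the smallest of the family, the adjusted p was 0.168, and DESeq2 gave an adjusted p of 5.48e-06.

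Lrp5 (ENSRNOG00000015911, chromosome 1, 218816841 to 218920094), which acts beside LRP6 and with FZD4 in retinal vessels, had 15.6, 26.3 and 13.6 TPM in the lesions, against 25.2, 25.3 and 25.3 TPM in the circle of Willis. The arteries were nearly equal to each other, and the lesion of animal 2 was at their level, above them in TPM and below them after scaling for library composition. Log2 ratios of -0.57, -0.01 and -0.90 (mean -0.49, SE 0.26) came with an adjusted p of 0.259 by edgeR's quasi-likelihood test.

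The secreted antagonists were mostly lower in lesions, with Sfrp4 going the other way. Their median log2 ratio was -0.18, -0.43 and -0.54 in animals 1, 2 and 3, and 8 of 9 tested had a mean below 0. The summed level was 235, 208 and 199 TPM in the lesions, against 328, 402 and 305 TPM in the circle of Willis. Dkk3, Sfrp1 and Frzb made up 90.9%, 89.8% and 87.4% of the sum in the lesions, against 92.7%, 93.2% and 83.9% in the circle of Willis.

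Sfrp1 (ENSRNOG00000017783, chromosome 16, 73372007 to 73410777) encodes a soluble protein with a frizzled-like domain that binds Wnt. It had 89.1, 54.9 and 55.3 TPM in the lesions, against 144, 186 and 80.4 TPM in the circle of Willis. The groups overlapped because the lesion of animal 1 lay above the circle of Willis of animal 3. The log2 ratios were -0.57, -1.82 and -0.54 (mean -0.98, SE 0.42), with an adjusted p of 0.219 by edgeR's quasi-likelihood test and 0.0353 by DESeq2.

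Frzb (ENSRNOG00000007765, chromosome 3, 67635607 to 67668772), the related antagonist sFRP3 of cartilage, had 32.3, 17.1 and 32 TPM in the lesions, against 46.3, 46.1 and 68.5 TPM in the circle of Willis. All lesions lay below all circles of Willis. Log2 ratios of -0.40, -1.49 and -1.09 (mean -1.0, SE 0.32) came with an adjusted p of 0.189 by edgeR's quasi-likelihood test and 0.0108 by DESeq2. Like Wnt6, it differed least in animal 1.

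Sfrp4 (ENSRNOG00000054957, chromosome 17, 47297489 to 47394328), an antagonist of bone and connective tissue, was the member past 1.5-fold higher in each lesion. It had 5.41, 8.67 and 12.1 TPM in the lesions, against 2.77, 4.44 and 2.49 TPM in the circle of Willis, without overlap. The lesions averaged 8.72 ± 3.33 TPM and the circle of Willis 3.23 ± 1.06 TPM (SD, n = 3 each). The ratios were 2.13, 1.87 and 4.86 in animals 1, 2 and 3 (mean log2 ratio 1.42, SE 0.43), with an adjusted p of 0.182 by edgeR's quasi-likelihood test and 0.00155 by DESeq2. The fibroblast and meninges markers were mixed, with 3 of 8 above 0 on average (Col1a1, Col3a1 and Lum) and 5 below. Col1a1 had 447, 3600 and 2950 TPM in the lesions, against 363, 449 and 334 TPM in the circle of Willis, whereas Dcn had 283, 505 and 375 TPM in the lesions, against 406, 626 and 645 TPM in the circle of Willis. Macrophage markers summed to 2850, 5050 and 10500 TPM in the lesions, against 2220, 1210 and 2400 TPM in the circle of Willis, with 5 of 7 above 0 on average. Their part in the Sfrp4 values was not tested.

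Sfrp5 had 2.36, 2.13 and 0.396 TPM in the lesions, against 5.9, 2.76 and 3.31 TPM in the circle of Willis, without overlap, at an adjusted p of 0.247 by edgeR's quasi-likelihood test. Sfrp2 was sparse, with 3, 30 and 78 counts in the lesions, against 12, 11 and 207 in the circle of Willis, and its direction differed between animals. Wif1, a secreted Wnt inhibitor of another fold, was near 1 TPM in all libraries, with ratios of 0.932, 0.92 and 0.947 within animals.

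The Dkk antagonists bind LRP5 and LRP6, apart from Dkk3, whose part in Wnt signalling is less clear. Dkk3 (ENSRNOG00000016343, chromosome 1) had 92.1, 115 and 87.1 TPM in the lesions, against 114, 142 and 107 TPM in the circle of Willis. Every lesion was below its own artery by a small and like amount, although in TPM the lesion of animal 2 lay above the arteries of animals 1 and 3, with a mean log2 ratio of -0.28 (SE 0.05) and an adjusted p of 0.313 by edgeR's quasi-likelihood test. Dkk2 (ENSRNOG00000011360, chromosome 2) had 7.75, 5.06 and 4.94 TPM in the lesions, against 8.33, 13.7 and 34.7 TPM in the circle of Willis. Its log2 ratios were 0.02, -1.49 and -2.81, and the large difference in animal 3 came with the highest artery value, in the library that also carried most pituitary and smooth muscle marker RNA, whose part was not tested. The mean log2 ratio was -1.43 (SE 0.82), with an adjusted p of 0.256 by edgeR's quasi-likelihood test and 0.0455 by DESeq2, and it was -2.12 without animal 1 and -0.74 without animal 3. Dkk4 stayed between 4.35 and 5.93 TPM in all libraries.

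The rest of the pathway was read in 7 lists of other genes, of which 90 of 94 were found and 84 tested. EdgeR's adjusted test called 0 of them. At an unadjusted p under 0.05, 21 of the 84 were lower in lesions and 2 were higher (12% and 8.63% of all genes), and 10 were past 1.5-fold lower in all 3 animals while 0 were higher (5.51% and 2.75% of all genes). Their median log2 ratio was -0.35, -0.21 and -0.21 in animals 1, 2 and 3. DESeq2 called 13 of the 84 lower and 2 higher (6.37% and 5.38% of all genes).

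Genes for making and carrying Wnt proteins (8 tested) held 3 of these 10. Wls, the carrier that brings Wnts to the cell surface, had 32.2, 77.4 and 35.8 TPM in the lesions, against 67, 132 and 61.5 TPM in the circle of Willis, with log2 ratios of -0.94, -0.84 and -0.78. Gpc3, a glypican of the cell surface that binds Wnts, had 10, 20.8 and 17.2 TPM in the lesions, against 38.4, 67.9 and 48.4 TPM in the circle of Willis, with log2 ratios of -1.82, -1.77 and -1.49. Both were alike in all 3 animals, and their adjusted p-values by edgeR's quasi-likelihood test were 0.174 and 0.131. Trabd2b, a membrane protease that cuts Wnts, had 4.72, 4.49 and 2.62 TPM in the lesions, against 12.9, 18.5 and 13.6 TPM in the circle of Willis. The other genes of this list were mixed. Their mean log2 ratios were 0.66 for Gpc1, 0.02 for Gpc4, -0.08 for Porcn, -0.43 for Gpc6 and -1.71 for Notum.

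R-spondins strengthen Wnt signals by removing the ligases that take frizzleds off the cell surface. Rspo2 had 3.21, 0.869 and 0.571 TPM in the lesions, against 5.62, 8.11 and 3.25 TPM in the circle of Willis. Its relative Rspo1, chosen after its values were seen, went the other way in animals 2 and 3, with 5.21, 14.9 and 30.3 TPM in the lesions, against 5.48, 3.63 and 5.48 TPM in the circle of Willis. The receptor Lgr6 had log2 ratios of -0.65, -1.19 and -2.28 on few counts, and the ligase Rnf43 had -0.97, -1.32 and -1.24. Adgra2, the endothelial and pericyte co-receptor for Wnt7 ligands, had 56.2, 78.6 and 45.7 TPM in the lesions, against 130, 131 and 85.4 TPM in the circle of Willis.

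Target genes of beta-catenin gave 4 of 17 lower and 1 higher at an unadjusted p under 0.05 (12% and 8.63% of all genes), with a median log2 ratio of -0.57, -0.23 and -0.33 in animals 1, 2 and 3. Axin2, a feedback inhibitor that is a common readout of beta-catenin activity, had 13, 8.14 and 6.93 TPM in the lesions, against 22.3, 21.1 and 12.8 TPM in the circle of Willis. The lesion of animal 1 lay just above the circle of Willis of animal 3, and each lesion was below its own artery (mean log2 ratio -0.99, SE 0.23, adjusted p 0.174 by edgeR's quasi-likelihood test and 0.00345 by DESeq2). Apcdd1, an inhibitor at the cell surface, had 46.9, 35.8 and 28.5 TPM in the lesions, against 79.8, 96.8 and 64.2 TPM in the circle of Willis. Shisa3, from the list of other antagonists and not a target here, holds back frizzled maturation in frog and mammalian cells. Its log2 ratios were -0.62, -1.55 and -0.87. Cd44, the higher target and chosen after its values were seen, is also a hyaluronan receptor of leukocytes and had 10.1, 58.6 and 53.7 TPM in the lesions, against 8.93, 9.86 and 11.4 TPM in the circle of Willis. Other targets, also named after their values were seen, were mixed. Mean log2 ratios were 0.21 for Lef1, 0.30 for Myc, -0.03 for Ccnd1 and -0.24 for Tcf7, against -0.80 for Sp5 and -1.27 for Nkd1. Beta-catenin activity itself was not tested. At an unadjusted p under 0.05, 6 genes of the cytoplasmic and nuclear relay (23 tested) and 1 planar cell polarity gene (13 tested) were lower. In both lists 0 were higher at that cut-off (12% of all genes lower and 8.63% higher). Past 1.5-fold in all 3 animals, both lists held 0 (5.51% of all genes lower and 2.75% higher).

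**Figure D4:**
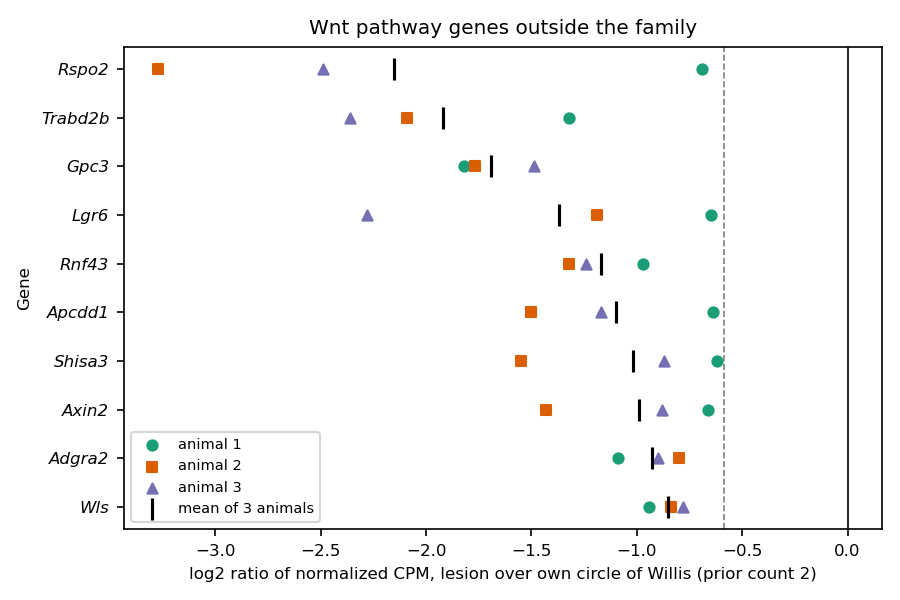
The log2 ratio of lesion over own circle of Willis (horizontal axis, prior count 2) for the 10 pathway genes outside the family that were past 1.5-fold in the same direction in all 3 animals (rows), with a symbol for each animal and a black bar for their mean. All 10 lie left of the dashed line at 1.5-fold, Gpc3 and Wls with little spread between animals and Rspo2 with a wide one.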

How the data were processed

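Tissue was homogenised, and stranded mRNA libraries (TruSeq) of its RNA were sequenced in pairs. Reads were aligned to Rnor6 and assigned to genes by the authors with CLC genomics workbench (version 11), and the submitters' processing notes name CASAVA. For each library the deposited table gives, over 22081 genes, a raw count, an RPKM, a TPM and a further CPM whose scaling no source states, so that it is treated as a signal. Counts and TPM were used, and the deposited RPKM and CPM signal were not. The 24 columns of the authors' own comparisons (group mean, fold change, p-value and FDR, for all lesions and for each animal) were not used.

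EdgeR (version 4.0.16, under R version 4.3.3) fitted the counts with TMM factors and a block for the animal, and its quasi-likelihood test (glmQLFit, glmQLFTest) was run on the 15367 genes that filterByExpr kept. Adjustment was by Benjamini-Hochberg over these genes, with calls under 0.05. Standard errors were taken from the 3 within-animal log2 ratios. DESeq2 (version 1.42.0), limma-voom (limma version 3.58.1), other scalings, filters, prior counts and folds, no block, and leaving out each animal were the alternatives. The labels give both libraries of a pair to 1 rat, and deviations of the paired libraries from their tissue means correlated across genes at 0.389, 0.3 and 0.0688 in animals 1, 2 and 3. The steps were also run on simulated counts, which had no animal effect, so that run does not bear on the pairing.

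The depth was 65823027 to 70705938 counts, so members with few counts are the least precise, and 3 pairs limit every p-value. The members and all gene lists were chosen with earlier results of these data known. Members named with all values were past 1.5-fold in all 3 animals, at an unadjusted p under 0.05, or among the highest 2 of their role by TPM, and the others are given in short. Pathway genes were the up to 3 of each list with the smallest p among those past 1.5-fold in all 3 animals. Of the pathway and marker lists, genes not found by symbol were not analysed here. Promoter windows were taken from RefSeq (GRCr8) by symbol, whereas gene positions are those of the deposited table (Rnor6).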

Additional observations from a re-analysis of the deposited data

How the results depend on the processing

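Every member named in full kept its direction under all alternatives run. EdgeR called 0 genes in each direction, whereas DESeq2 called 826 genes higher and 979 lower, 1 and 9 of them in the family. The cause of this gap was not tested. Without the pairing (no replicate block) edgeR called 1 gene lower and 0 members, and the block changed no call of a member. With each animal left out, edgeR called 0 members, and the unadjusted count of members was 1 to 2 higher and 7 to 11 lower. The share of all genes at that cut-off was not counted in these fits, so the counts have no background beside them. At 2-fold in all 3 animals, 0 members were higher (1.24% of all genes) and 2 lower (1.95%). Lrp6, Wnt16, Wnt9b and Sfrp4 passed the 1.5-fold rule in all 3 animals, so their passing with an animal left out was nearly fixed in advance. With an animal left out, that rule asks for agreement in fewer animals. It then gave 1 to 2 members higher (3.88% to 11.6% of all genes) and 4 to 9 lower (6.95% to 11.9% of all genes). The median log2 ratio ranged from -0.11 to -0.05 for frizzleds (-0.22 with all animals), from -0.56 to -0.29 for antagonists (-0.53), from -0.82 to -0.60 for ligands and from -0.94 to -0.70 for co-receptors. Scaling moved the median of all genes by little, between -0.05 and -0.01. Wnt9b, Wnt10b, Sfrp2, Wnt7a, Wnt7b, Wnt9a and the 6 untested members, among others, rest on few counts, and their values are limited by depth.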
